A study of Rattus norvegicus with 8 samples.

Results

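The transcripts described here belong to 7 genes that mark blood cells or fatty acid-handling cells in liver tissue: S100a8 and S100a9, Hba-a1, Hba-a3, Hbb-b1, Alas2 and Fabp4. They were picked because several of them were lower with AM21 at 24 h in an earlier look at these arrays, so that contrast is described below without a test. Each gene is represented by a probe set that the platform annotation assigns to it alone, the one with the highest mean where there were several. Of the 7 genes, 6 had such a probe set, out of 18166 genes with one in all, and Alas2 is not analysed here. All 6 had a mean log2 level over the arrays of at least 5 and were among the 8690 genes tested. S100a8 and S100a9 reached that minimum through the 24 h arrays.

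The study measured liver RNA on 8 arrays, 1 per group, in male rats of the outbred Sprague-Dawley stock. The AM21 groups received an antisense oligonucleotide with locked nucleic acid bases against the microRNA miR-21, at 7.5 mg/kg into the abdominal cavity, once 72 h ahead of partial hepatectomy (PHx), the surgical removal of most of the liver, and once immediately afterwards. They were ethanol-fed AM21 rats at 24 h and at 0 h, and pair-fed AM21 rats at 24 h and at 0 h. The untreated groups were ethanol-fed and pair-fed rats at the same times. Ethanol feeding was chronic, and pair-fed rats received a carbohydrate control diet. At 24 h every group had lost 70% of its liver a day earlier, and the 0 h tissue was taken at the operation itself. Each array holds RNA pooled from 3 rats (AM21) or 4 rats (untreated), and how much single animals differed is not known. By the animal identifiers, the same rats gave the 0 h and the 24 h tissue, which makes 4 matched pools. AM21 and untreated rats have separate runs of identifiers, so treatment and cohort cannot be told apart. No sham-operated group and no group with another oligonucleotide were analysed here, so PHx cannot be told apart from surgery or elapsed time, nor AM21 from injection of any oligonucleotide.

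S100A8 and S100A9 are small calcium-binding proteins that pair to form calprotectin, a large part of the cytosolic protein of neutrophils and also made by monocytes. Haemoglobin is built of alpha chains (Hba genes) and beta chains (Hbb genes). Its mRNA persists in young red cells after they have lost their nucleus, so blood held in a tissue sample brings globin RNA with it. ALAS2 starts haem synthesis in red cell precursors. FABP4 is a cytosolic fatty acid carrier known from fat cells, macrophages and capillary endothelium, so it marks neither neutrophils nor red cells. In bulk tissue, fewer cells of a type and less RNA per cell cannot be told apart.

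The microRNA that AM21 is directed against is shown because the treatment is defined by it. Its mature sequence comes from RefSeq (GRCr8, chr10:71902653-71902674, minus strand), with the seed, bases 2 to 8, in capitals.
rno-miR-21-5p: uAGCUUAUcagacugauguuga

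The RefSeq promoter table of GRCr8 held 4 of the 6 measured genes. The 250 bases before the transcription start are shown for these 4, because the 3 globin genes moved together on the arrays and S100a9 had another response to PHx. They lie at chr10:15842581-15842830 (Hba-a1), chr10:15816944-15817193 (Hba-a3), chr1:167643521-167643770 (Hbb-b1) and chr2:178490623-178490872 (S100a9), all on the minus strand. Capitals mark matches on either strand to any of 5 motifs. The GATA motif was searched as AGATAA and its variants with T as the first letter, G as the last letter or both. The CCAAT box was searched by the letters of its name. The TATA box was searched as TATAAA. The CACCC element was searched as CACACCC. The C/EBP motif was searched as TTNNGCAA.
Hba-a1: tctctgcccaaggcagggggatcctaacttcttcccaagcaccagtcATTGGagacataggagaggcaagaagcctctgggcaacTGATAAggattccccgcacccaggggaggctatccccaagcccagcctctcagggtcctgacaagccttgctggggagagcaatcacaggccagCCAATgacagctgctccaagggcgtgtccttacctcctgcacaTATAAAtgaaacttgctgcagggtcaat
Hba-a3: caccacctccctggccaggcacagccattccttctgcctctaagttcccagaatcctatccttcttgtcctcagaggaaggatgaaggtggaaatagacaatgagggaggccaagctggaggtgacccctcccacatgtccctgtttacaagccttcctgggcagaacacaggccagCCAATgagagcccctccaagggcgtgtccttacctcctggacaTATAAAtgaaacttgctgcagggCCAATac
Hbb-b1: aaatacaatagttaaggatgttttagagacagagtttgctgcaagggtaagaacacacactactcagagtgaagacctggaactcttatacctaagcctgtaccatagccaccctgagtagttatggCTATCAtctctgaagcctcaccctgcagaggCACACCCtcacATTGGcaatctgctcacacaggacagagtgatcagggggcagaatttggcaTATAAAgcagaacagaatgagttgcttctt
S100a9: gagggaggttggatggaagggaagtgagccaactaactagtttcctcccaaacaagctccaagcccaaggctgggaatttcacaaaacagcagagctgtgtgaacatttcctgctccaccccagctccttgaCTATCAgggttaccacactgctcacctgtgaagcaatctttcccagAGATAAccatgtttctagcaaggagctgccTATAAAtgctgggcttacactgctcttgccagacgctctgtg

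All 4 windows hold a TATA box, which 12.9% of the 33469 promoters in the table do. The 3 globin promoters hold a CCAAT box and that of S100a9 does not, against a share of 34% in the table. A GATA motif stands in the windows of Hba-a1, Hbb-b1 and S100a9 but not in that of Hba-a3 (27% of promoters), and the CACCC element in that of Hbb-b1 alone (6.12%). None of the 4 holds the C/EBP motif (9.22%), and no matches of different motifs overlapped. The Hba-a1 and Hba-a3 windows were identical at 62.4% of aligned positions, against 44.3% to 48.2% for the other pairs. A match is a description of letters, not a binding site. In the RefSeq order of protein-coding genes, S100a8 and S100a9 are direct neighbours on chromosome 2, which also carries Fabp4. Hba-a1 and Hba-a3 lie on chromosome 10 with Hba-a2 and Hbq1b between them. Close globin copies can share probe signal, so each is uncertain as a single gene.

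**Figure D1:**
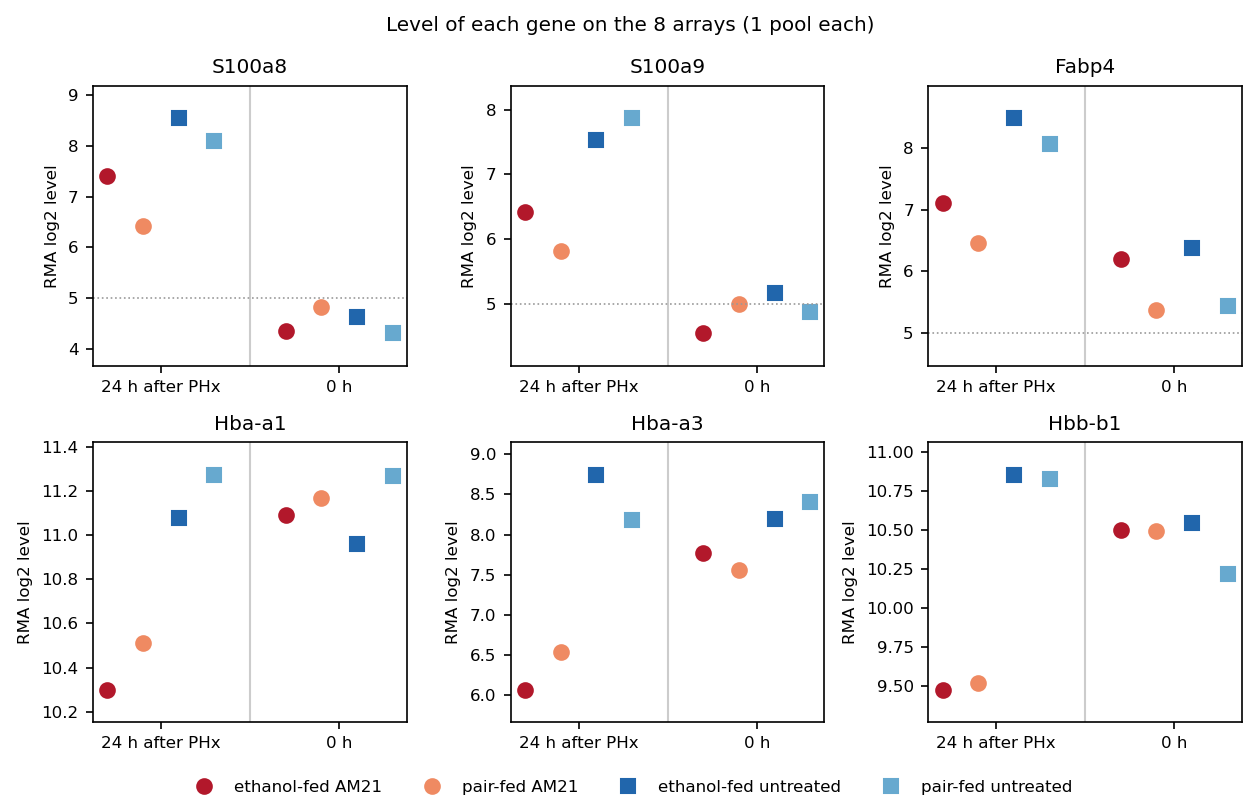
RMA log2 level (y axis) of the 6 measured genes on the 8 arrays, with 24 h after PHx left of 0 h and AM21 pools (circles) left of untreated pools (squares) at each time. The dotted line is the level minimum of 5, drawn where the levels come near it. At 24 h both AM21 points lie below both untreated points in every panel, and S100a8, S100a9 and Fabp4 are higher at 24 h than at 0 h on all arrays.

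The first comparison asked how these transcripts changed within a day of PHx. The 2 calprotectin genes and Fabp4 rose, and the change of the 3 globin genes did not pass the test. S100a8 stood at 7.42 and 6.42 (log2 level) in ethanol-fed and pair-fed AM21 livers and at 8.54 and 8.09 in ethanol-fed and pair-fed untreated livers at 24 h, against 4.36, 4.82, 4.62 and 4.30 in the same pools at 0 h. The times did not overlap, and the lowest 24 h level was that of the pair-fed AM21 pool. The 24 h arrays averaged 7.62 ± 0.92 and the 0 h arrays 4.53 ± 0.24 (SD, n = 4 arrays of different groups), a rise of 3.09 ± 0.37 (SE), or 8.51-fold (adjusted p = 0.00249).

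S100a9, the partner chain, stood at 6.42 and 5.82 in ethanol-fed and pair-fed AM21 livers and at 7.54 and 7.87 in ethanol-fed and pair-fed untreated livers at 24 h, against 4.55, 5.00, 5.18 and 4.88 in the same pools at 0 h. Again the times did not overlap. The rise was 2.01 ± 0.32, or 4.03-fold (adjusted p = 0.00592). All 4 levels of S100a8 at 0 h and 2 of the 4 of S100a9 were under 5, and without detection calls on these arrays the size of both rises is uncertain.

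Fabp4 stood at 7.11 and 6.46 in ethanol-fed and pair-fed AM21 livers and at 8.48 and 8.05 in ethanol-fed and pair-fed untreated livers at 24 h, against 6.21, 5.38, 6.38 and 5.45 in the same pools at 0 h. The times did not overlap, though the lowest 24 h level, of the pair-fed AM21 pool, was close to the highest 0 h level, of the ethanol-fed untreated pool. The rise was 1.67 ± 0.29, or 3.18-fold (adjusted p = 0.00786). So 3 of the 6 measured genes rose and none fell, where 15.3% of all tested genes rose, 12.8% fell and 28.1% changed in either direction. The same 3 had all 24 h arrays above all 0 h arrays, which 17.4% of tested genes had. Nothing is read from these counts, since S100a8 and S100a9 averaged under the level minimum at 0 h and were tested because they were high at 24 h. The same limit holds for the adjusted p of these 2 genes. With any 1 of the 4 pools left out, the adjusted p of the 3 rises stayed between 0.00293 and 0.0288.

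Hba-a1, an alpha chain gene, stood at 10.30 and 10.51 in ethanol-fed and pair-fed AM21 livers and at 11.08 and 11.27 in ethanol-fed and pair-fed untreated livers at 24 h, against 11.09, 11.17, 10.96 and 11.27 in the same pools at 0 h. The 2 AM21 arrays at 24 h lay below all 0 h arrays. Its mean change of -0.33 ± 0.17 did not pass (adjusted p = 0.199, 95% interval -0.74 to 0.08).

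Hba-a3, a neighbouring alpha chain gene, stood at 6.07 and 6.53 in ethanol-fed and pair-fed AM21 livers and at 8.75 and 8.18 in ethanol-fed and pair-fed untreated livers at 24 h, against 7.77, 7.56, 8.19 and 8.41 in the same pools at 0 h. The 2 AM21 arrays at 24 h again lay below all 0 h arrays, and the untreated arrays overlapped between the times. Its mean change was -0.60 ± 0.34 (adjusted p = 0.228, 95% interval -1.41 to 0.21).

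Hbb-b1, a beta chain gene, stood at 9.48 and 9.52 in ethanol-fed and pair-fed AM21 livers and at 10.86 and 10.83 in ethanol-fed and pair-fed untreated livers at 24 h, against 10.51, 10.50, 10.55 and 10.22 in the same pools at 0 h. Its 2 AM21 levels at 24 h lay below, and its 2 untreated levels above, all 0 h levels. Its mean change was -0.27 ± 0.30 (adjusted p = 0.534, 95% interval -0.98 to 0.44).

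The means of the globin genes averaged pools that moved in different ways. In the ethanol-fed and pair-fed AM21 pools the 24 h minus 0 h change was -0.79 and -0.66 for Hba-a1, -1.70 and -1.03 for Hba-a3, and -1.03 and -0.98 for Hbb-b1. In the ethanol-fed and pair-fed untreated pools it was 0.12 and 0.01 for Hba-a1, 0.55 and -0.23 for Hba-a3, and 0.31 and 0.61 for Hbb-b1. All 6 changes in AM21 pools were below 0, against 1 of 6 in untreated pools. The globin genes were read on the same pools and can share probe signal, so these changes are not independent readings. No share over all tested genes was taken for this count, and nothing is read from it. Of all tested genes 4.02% were lower at 24 h in both AM21 pools and higher in both untreated pools, as Hba-a1 and Hbb-b1 were. The contrast on which the genes were picked is part of this pattern, which therefore has no test.

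S100a8 and S100a9 rose in all 4 pools, by 3.06 and 1.60 for S100a8 and 1.87 and 0.82 for S100a9 in the ethanol-fed and pair-fed AM21 pools. In the ethanol-fed and pair-fed untreated pools the values were 3.92 and 3.78 for S100a8 and 2.36 and 2.99 for S100a9. For Fabp4 they were 0.90 and 1.08 in the AM21 pools and 2.09 and 2.61 in the untreated pools. Because the 24 h contrast with AM21 chose these genes, the difference between AM21 and untreated pools in the PHx response is part of that choice and has no test. A rise in all 4 pools that was smaller in both AM21 pools was seen for these 3 genes and for 5.66% of all tested genes.

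**Figure D2:**
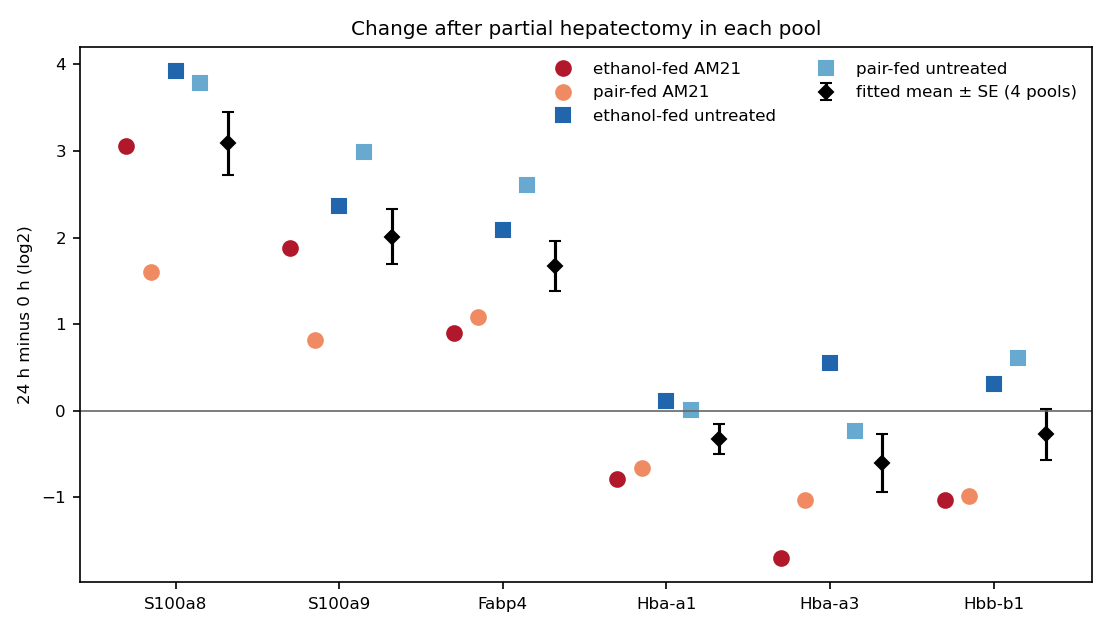
Change from 0 h to 24 h (24 h minus 0 h, log2, y axis) of each measured gene in the 2 AM21 pools (circles) and the 2 untreated pools (squares), with the fitted mean ± SE over 4 pools (diamonds). The calprotectin genes and Fabp4 lie above 0 in every pool, and the globin genes lie below 0 in both AM21 pools.

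The second comparison set AM21 against untreated livers, first at 24 h, the contrast on which the genes were picked. All 6 genes were lower in AM21 livers in both diets, and for all 6 both AM21 arrays lay below both untreated arrays. Among all tested genes, 40.6% were lower in both diets and 26.2% had both AM21 arrays below both untreated arrays. Nothing can be read from the members' count, since it follows from how they were picked. The difference in ethanol-fed and pair-fed livers was -1.13 and -1.67 for S100a8, -1.12 and -2.04 for S100a9, and -1.37 and -1.59 for Fabp4. For the globin genes it was -0.78 and -0.76 for Hba-a1, -2.68 and -1.64 for Hba-a3, and -1.38 and -1.31 for Hbb-b1. The means over diets ran from 1.71-fold lower for Hba-a1 to 4.48-fold lower for Hba-a3. Of the 6 genes, 5 were lower by at least 1 log2 unit in both diets, as were 0.104% of tested genes. That share is 9 genes with these 5 included. Nothing is read from it either, since the genes were picked on this contrast.

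Probe sets that the annotation assigns to several globin genes were no members and give a further reading of the same RNA. The one shared by Hbb, Hbbl1 and Hbb-bs stood at 9.30 and 9.52 in ethanol-fed and pair-fed AM21 livers at 24 h, against 10.70 in both untreated livers. At 0 h it stood at 10.56 and 10.51 in AM21 livers and 10.32 and 10.25 in untreated livers. The one shared by Hbb-bs and Hbbl1 stood at 9.25 and 9.84 in AM21 livers at 24 h, against 10.55 and 10.63 in untreated livers. Both beta chain probe sets were thus low on the same 2 arrays as Hbb-b1. The one shared by Hba-a1 and Hba-a2 was at most 4.39 on every array, under the level minimum, at 4.14 and 3.73 in AM21 livers and 4.09 and 4.24 in untreated livers at 24 h.

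The contrast at 0 h was not the one on which the genes were picked, though the level minimum and the probe set rule used all 8 arrays. Before the operation, 72 h after the first injection, no gene passed the test, members included (0% of 8690 genes by limma). At an unadjusted p under 0.05 there were 377 of 8690 genes, with Hba-a3 among them. That is no more than this threshold gives where nothing differs. Of all tested genes 27.4% were lower with AM21 in both diets at 0 h, as Hba-a3 and Fabp4 were. Hba-a3 stood at 7.77 and 7.56 in ethanol-fed and pair-fed AM21 livers, against 8.19 and 8.41 in untreated livers, with no overlap. Its difference was -0.64 ± 0.17 (unadjusted p = 0.00647, adjusted p = 0.998). The other 5 genes had AM21 and untreated levels that overlapped at 0 h. Their differences were 0.13 ± 0.21 for S100a8, -0.25 ± 0.21 for S100a9, -0.12 ± 0.16 for Fabp4, 0.02 ± 0.16 for Hba-a1 and 0.12 ± 0.16 for Hbb-b1 (adjusted p = 0.998 for each). The 95% intervals reached from -0.73 for S100a9 to 0.61 for S100a8. With 2 pairs and 1 residual degree of freedom, the spread behind these intervals is mostly borrowed from other genes by the moderated fit. It has 7.62 degrees of freedom in all, so the intervals say little about the spread of a single gene. A p that misses the threshold does not show that the levels were alike.

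**Figure D3:**
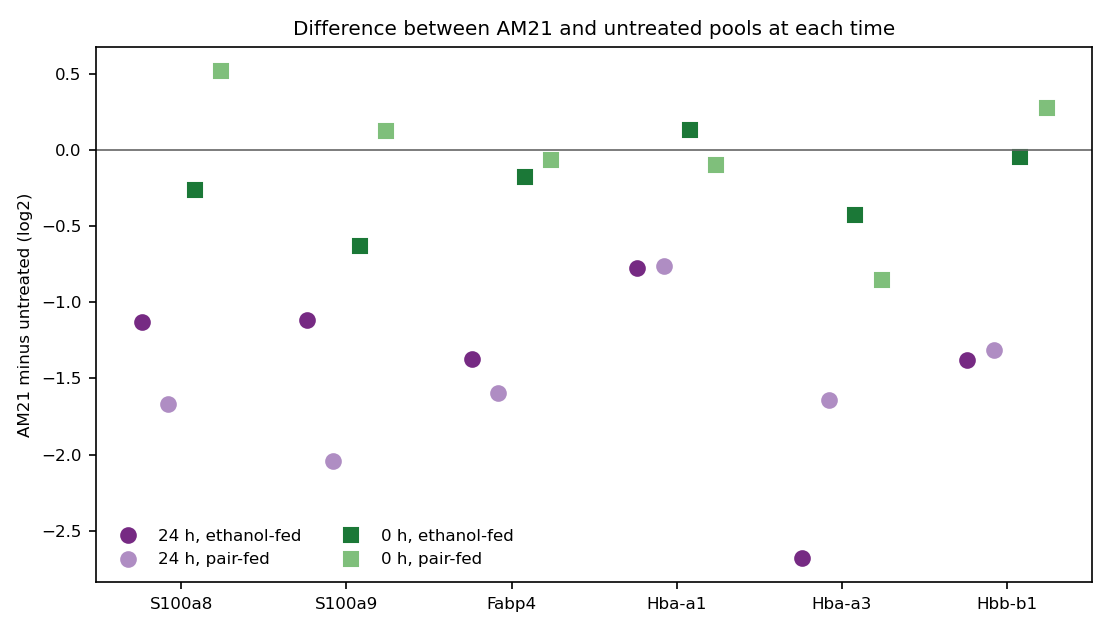
Difference between AM21 and untreated livers (AM21 minus untreated, log2, y axis) for each measured gene at 24 h (circles) and at 0 h (squares), with ethanol-fed left of pair-fed. At 24 h all 12 differences lie between -2.68 and -0.76, and at 0 h all lie between -0.85 and 0.52.

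The third comparison asked whether chronic ethanol feeding changed these transcripts, averaged over treatment and time. None of the 6 passed the test, where 0.38% of all tested genes were higher and 0.0806% lower in ethanol-fed livers, 0.46% in either direction. Fabp4 came nearest. Ethanol-fed minus pair-fed, it differed by 0.65 in AM21 and 0.42 in untreated livers at 24 h, and by 0.83 and 0.94 at 0 h. It was thus higher in ethanol-fed livers in all 4 pairs, which 15% of tested genes were, with a fitted difference of 0.71 ± 0.26 (adjusted p = 0.268, 95% interval 0.10 to 1.32). It passed at 0 h alone (0.88, adjusted p = 0.0494) and with each pool averaged over time (adjusted p = 0.0371), but not at 24 h alone (0.53, adjusted p = 0.194).

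For the other 5 genes the diet difference was 0.33 ± 0.34 for S100a8, 0.03 ± 0.29 for S100a9, -0.20 ± 0.16 for Hba-a1, 0.03 ± 0.32 for Hba-a3 and 0.08 ± 0.28 for Hbb-b1. Their adjusted p lay between 0.627 and 0.981. A diet difference of 1 log2 unit is outside the 95% interval of S100a9, Hba-a1, Hba-a3 and Hbb-b1 but inside that of S100a8 (-0.45 to 1.11). The PHx response did not pass a test of difference between diets for any of the 6 genes (0.529% of tested genes passed, 0.069% with a higher and 0.46% with a lower response in ethanol-fed pools). S100a8 came nearest, with a rise larger by 0.80 ± 0.31 in ethanol-fed pools (unadjusted p = 0.0318, adjusted p = 0.376). This fit held a time by treatment term, which contains the contrast that chose the members. Its SE is therefore not free of that choice, and it had 1 residual degree of freedom.

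The label of this gene set names 2 blood cell types, and other genes of those cells were checked. Of 38 further neutrophil genes 34 had a probe set, and 8 of these reached the level minimum. The granule genes Mpo, Elane, Prtn3, Ctsg, Camp, Ngp, Ltf, Mmp8 and Mmp9 and the receptors Cxcr2 and Csf3r were not among them. The 26 untested neutrophil genes had mean levels from 2.51 to 4.84. The 8 that were tested, among them Itgb2, Cybb, Cyba and Ncf1, are also made by macrophages or other cells. Besides the 3 measured globin genes, 5 chains had a probe set of their own and none reached the minimum, among them the embryonic chains Hbz and Hbe1. Of 38 other red cell genes 34 had a probe set and 14 were tested. The red cell regulators Klf1 and Gata1 and the globin chaperone gene Ahsp were under the minimum. The 8 hepatocyte genes measured, from Alb to Cyp2e1, all had mean levels of at least 9.01, as the tissue label says.

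The lists are read beside the shares over all tested genes, of which 15.3% rose and 12.8% fell after PHx. Of the 8 further neutrophil genes 1 rose and 1 fell, with a median change of 0.10 beside 0.01 over all tested genes. Lcn2, an iron-siderophore-binding protein of neutrophils that hepatocytes also make, rose by 3.67 ± 0.26, and Ceacam1, an adhesion molecule also found on hepatocytes, fell by 0.61 (-0.61 ± 0.14). Cyba and Cybb, the subunits of the phagocyte oxidase in the membrane, had changes of 0.22 and -0.12 that did not pass. In the S100 family and its receptors, 3 of 8 further genes rose, S100a6 (1.19 ± 0.13), S100a11 (1.00 ± 0.17) and S100a10 (0.86 ± 0.15), and none fell. The list median was 0.31.

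Among 10 tested genes of neutrophil recruitment, 3 rose and 1 fell, beside 15.3% and 12.8% of all tested genes. Besides Lcn2, the neutrophil-attracting chemokine gene Cxcl1 rose by 1.53 ± 0.42 and the monocyte-attracting Ccl2 by 0.61 ± 0.18, while the chemokine gene Cxcl12 fell (-0.87 ± 0.09). The mean of Cxcl1 covers unequal pools, with 3.14 and 1.87 in ethanol-fed and pair-fed AM21 pools and 0.47 and 0.64 in untreated pools. Of 19 monocyte and macrophage genes 1 rose, Marco, a scavenger receptor (1.06 ± 0.10), and 6 fell, led by the endotoxin co-receptor Cd14 (-0.98 ± 0.12), with a median of -0.07. Both tested platelet genes fell, Clec1b (-1.04 ± 0.17) and Pf4 (-0.66 ± 0.15). Of 3 tested lymphocyte genes 2 fell, Ccl5 (-0.97 ± 0.09) and Cd4 (-0.42 ± 0.10). Under the level minimum were 11 of 13 platelet genes and 19 of 22 lymphocyte genes with a probe set. The few tested genes therefore do not show how platelets or lymphocytes changed.

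Of the 14 red cell genes other than haemoglobin, 1 rose and 1 fell after PHx, with a median of -0.08. The transferrin receptor gene Tfrc, which dividing cells of many types use to take up iron, rose by 1.00 ± 0.13, and the mitochondrial clearance gene Bnip3l fell (-0.69 ± 0.11). Prdx2, a peroxidase abundant in red cells, and Epb41, a protein of the red cell skeleton, had changes of 0.15 and -0.17 that did not pass. Of 15 genes of haem synthesis, breakdown and scavenging, 1 fell, the haem oxygenase gene Hmox2 (-0.57 ± 0.11).

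Fabp4 was set beside other lipid-binding proteins and beside cells that make it. Of 5 further fatty acid and retinoid binding protein genes, Rbp7, which capillary endothelium and fat cells make, rose by 1.04 ± 0.23 and Fabp7 fell (-0.63 ± 0.14). For Fabp1, the main fatty acid carrier of hepatocytes, the value was -0.21 and missed the threshold. Of 11 endothelial genes 3 rose, with Rbp7 counted again beside Esam (0.51 ± 0.13) and Flt1 (0.37 ± 0.10), and 2 fell, led by Clec4g (-0.60 ± 0.10). Of 8 adipocyte genes 3 fell, Cebpa (-1.03 ± 0.14), Cfd (-0.62 ± 0.11) and Cidec (-0.55 ± 0.16), all of which have roles outside fat cells. The fat cell hormone gene Adipoq was under the level minimum, at a mean of 4.04.

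The same lists were read in the 24 h contrast between AM21 and untreated livers, again without a test. Of the 8 further neutrophil genes 7 were lower in both diets, beside 40.6% of all tested genes, with a median difference of -0.14 beside -0.06 over all tested genes. Over the 34 neutrophil genes with a probe set, the mean level was 4.68 on both AM21 arrays and 4.83 and 4.86 on the untreated arrays. Slpi, a protease inhibitor of neutrophils and epithelia, had the largest differences of the 8, -1.31 and -0.93 in ethanol-fed and pair-fed livers. Lcn2, which rose after PHx, had -0.07 and -0.13, and Itgb2 had -0.05 and 0.02. Slpi was chosen for mention after its values were seen, as were Lcn2, Itgb2 and the genes in the next paragraph.

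Of the 14 red cell genes other than haemoglobin 6 were lower in both diets, a share near the background, with a median of -0.09. Slc4a1, the anion exchanger of the red cell membrane, had differences of -0.48 and -1.10, and Bpgm, which makes the haemoglobin ligand bisphosphoglycerate, of -0.42 and -0.30. Dmtn, a protein of the red cell skeleton, was higher in both diets (0.33 and 0.09), and the other 7 genes of the list were higher in one diet and lower in the other. The 34 red cell genes with a probe set averaged 4.86 and 4.92 on the AM21 arrays and 5.01 and 5.08 on the untreated arrays at 24 h, against 4.98 to 5.02 at 0 h. For macrophage genes 12 of 19 were lower in both diets, with a median of -0.17. Beside this count and those that follow stands the share of 40.6% over all tested genes. Timd4 had -0.75 and -0.995 at 24 h. At 0 h it already differed by -0.55 ± 0.15, which did not pass (limma adjusted p = 0.998). Of the macrophage genes 3 were higher in both diets, Adgre1 (0.54 and 0.25), Cd74 (0.14 and 0.28) and Mrc1 (0.18 and 0.12). In the S100 list the number lower in both diets was 6 of 8 (median -0.26, with S100a4 at -0.77 and -0.72), and S100a13 was higher in both (0.16 and 0.12). For neutrophil recruitment it was 6 of 10 (median -0.12, with Ccl2 at -0.97 and -0.56). Adipocyte genes were lower in 5 of 8 (median -0.20) and endothelial genes in 4 of 11 (median -0.07). No hepatocyte gene was lower in both diets (0 of 8, median 0.03). The blood content of the tissue pieces was not measured, and its part in the lower member levels was not tested.

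**Figure D4:**
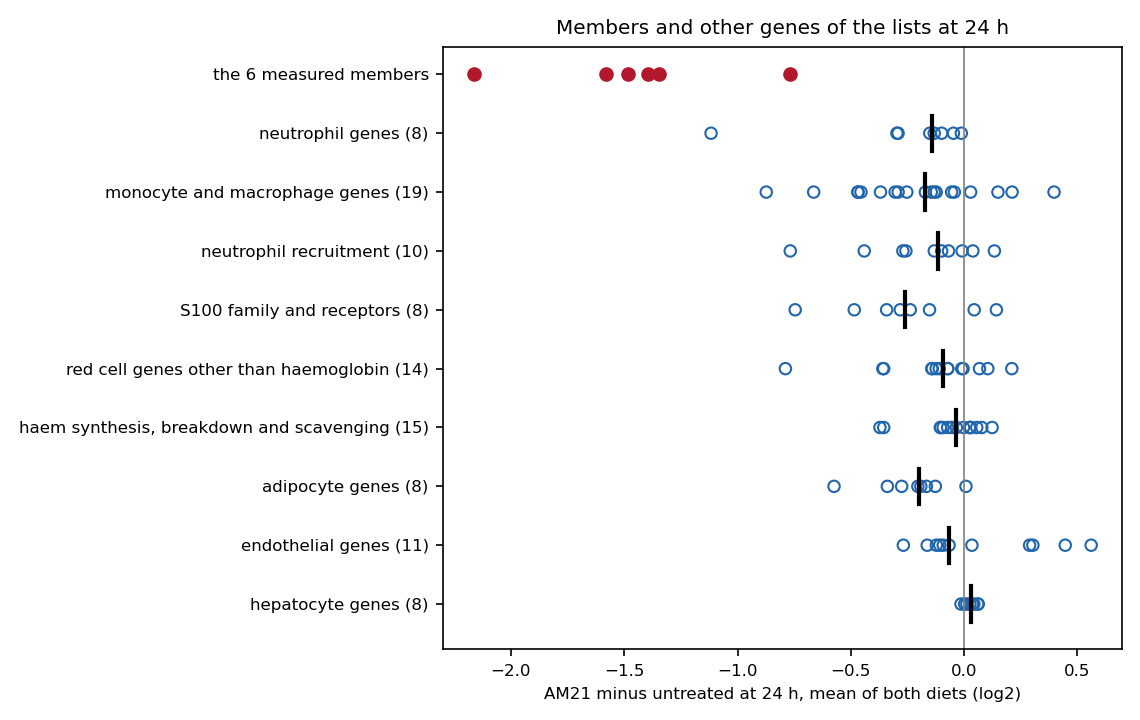
Difference between AM21 and untreated livers at 24 h, averaged over both diets (log2, x axis), for the 6 measured members (filled) and for the other tested genes of 9 lists (open, number of genes in brackets, median as a bar). The members lie between -2.16 and -0.77, and the list medians lie between -0.26 and 0.03.

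Among themselves the members fell into groups by their pattern over the 8 arrays, which share their libraries and the contrast used for the choice, so these correlations are a description. S100a8 correlated with S100a9 at r = 0.97 and with Fabp4 at 0.92. The globin genes correlated with each other at 0.86 to 0.89. Between S100a8 and the globin genes r lay between -0.26 and 0.04 over all arrays. With the mean of each time taken off, it lay between 0.66 and 0.85, since all were then low on the AM21 arrays at 24 h.

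The genes most like each group were sought among 766 tested genes with an SD over arrays of at least 0.5. Nearest to the mean of S100a8 and S100a9 were Sema3c (r = 0.99), Fxyd5, Fkbp11, Wars1 and Axin2 (r = 0.97 each), and Sema3c kept r = 0.93 with the time means taken off. Nearest to the mean of the 3 globin genes were Npy (r = 0.90), Gpm6a (0.80), Eif4ebp3 (0.75), Ypel3 (0.70) and Oas1i (0.66). Npy, which encodes neuropeptide Y, stood at 6.11 and 6.23 in ethanol-fed and pair-fed AM21 livers and 7.64 and 7.49 in untreated livers at 24 h. No gene of the red cell list was among these 5, and nothing is read from that. Of the 34 genes of that list with a probe set, 20 were under the level minimum. Others, such as Slc4a1, varied too little over the arrays to be searched. Nearest to Fabp4 were Sod2 (r = 0.97), which encodes the mitochondrial superoxide dismutase, Procr (0.96), which encodes the protein C receptor of endothelium, Pla1a (0.95), Pcdh18 and Dsc2 (0.94 each).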

How the data were processed

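The deposited values are log2 levels per probe set, which the authors computed by RMA. The submitters' processing notes name Affymetrix Expression Console as the software, and its version and a genome build are not given there. RMA corrects background, equalizes the arrays' distributions and sums the probes of a set. They ran from 0.48 to 13.34, with array medians from 4.11 to 4.23. RMA hides a shift shared by most genes. Precision is limited by there being 4 pools.

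The platform annotation names 1 symbol for 18511 of 36685 probe sets, several for 575 and none for 17599. Fits used limma 3.58.1 in R 4.3.3 on all 8690 genes with a mean level of at least 5, with Benjamini-Hochberg adjustment over these and a threshold of 0.05. The PHx response and its difference between diets had the pool as a fixed block, since the labels give the same animals at both times. The fit of the difference between diets also had a time by treatment term, which left 1 residual degree of freedom. The diet fit had treatment and time as terms and the pool as a random block. Its estimated correlation of -0.37 was set to 0, so the 8 arrays count as independent although there were 4 pools. The AM21 effect at 0 h used the 4 arrays of that time with diet as a term. The main fits were tested on simulated data that had no pool effect, and the alternative fits were not. Intervals are from the moderated t distribution.

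Genes were named as follows: all members; per list up to 4 others, those past the threshold by size, else the highest mean level; per pattern the 5 highest correlations. Genes under the level minimum were named for their known role. Members and lists were chosen with earlier results of these data known. Alternatives were another level filter, probe set rule, normalization, prior, block or model, and arrays or pools left out.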

Additional observations from a re-analysis of the deposited data

Results flagged for a closer look

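For 2 genes the change with PHx went one way in both AM21 pools and the other way in both untreated pools. Hba-a1 changed by -0.79 and -0.66 in ethanol-fed and pair-fed AM21 pools and by 0.12 and 0.01 in untreated pools, a difference between the treatments of -0.79. Hbb-b1 changed by -1.03 and -0.98 in AM21 pools and by 0.31 and 0.61 in untreated pools, a difference of -1.46. Among all tested genes 4.02% had lower levels at 24 h in both AM21 pools and higher ones in both untreated pools. The difference was not tested, because the genes were picked on the 24 h contrast that it contains.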

How the results depend on the processing

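The rises of S100a8, S100a9 and Fabp4 after PHx passed under every alternative run. S100a8 and S100a9 were tested because they were high at 24 h, so their passing adds no separate support for a rise. Leaving out 1 pool in turn gave 2.81 to 3.59, 1.68 to 2.41 and 1.36 to 1.93 for them. With no pool block (no replicate block) the same 3 members passed, and 2702 genes in all against 2443. Over all genes 776 passed in the untreated pools alone, and 1466 to 1705 with 1 pool left out (1466 when the ethanol-fed AM21 pool was dropped, 1566 for the ethanol-fed untreated and 1628 for the pair-fed AM21 pool). In the untreated pools alone Hba-a1, Hba-a3 and Hbb-b1 turned to 0.062, 0.16 and 0.46. Hba-a1 passed (adjusted p = 0.0484) with a time by treatment term. Both settings draw on the contrast that chose the members, so neither is evidence. The diet effect passed in 40 genes, against 11 with no level filter, 86 with a trended robust prior, 102 with pool means, 285 with all 2-way interactions, 101 at 0 h alone, 0 at 24 h alone (limma) and 0 to 18 with 1 array left out. It was 0 without the pair-fed untreated 24 h array. Fabp4 was the 1 member called with pool means, with all 2-way interactions and at 0 h alone. Uncalled diet values turned at 0 h alone for S100a8 (-0.069), S100a9 (-0.081) and Hba-a3 (-0.00068), and at 24 h alone for Hbb-b1 (-0.0065). With 1 array left out they ran from -0.029 to 0.72 for S100a8, -0.28 to 0.31 for S100a9, -0.30 to 0.34 for Hba-a3 and -0.16 to 0.29 for Hbb-b1. The AM21 effect at 0 h passed in 4 genes after quantile normalization and 17 with the trended robust prior, none of them a member. Hba-a1 there turned to -0.00095 after quantile normalization, and its PHx response by diet to 0.013. That last comparison passed in 46 genes, against 0 with no level filter or after quantile normalization and 179 with the trended robust prior. The cause of these changes was not tested. All 6 members stayed lower with AM21 at 24 h in both diets. Arrays carry no detection call, which limits S100a8 and S100a9 at 0 h.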

Other observations

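The 24 h contrast between AM21 and untreated livers held 4 further genes that were lower by at least 1 log2 unit in both diets, beside 5 of the members, of 8690 tested. The carboxylesterase gene Ces2e differed by -1.54 and -1.11 in ethanol-fed and pair-fed livers, the interferon-inducible GTPase gene Ifi47 by -1.11 and -1.54, the molybdenum cofactor sulfurase gene Mocos by -1.07 and -1.17, and Npy by -1.53 and -1.26. Each difference is between single arrays and has no replicate check.

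The neutrophil-attracting chemokine gene Cxcl1, chosen after its values were seen, differed by -1.96 ± 0.21 between AM21 and untreated livers at 0 h, which did not pass (limma adjusted p = 0.0669).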
